A study of Mus musculus with 7 samples.

Results

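Digestive enzymes of the exocrine pancreas were followed in β-cells sorted from mice, where such genes are not expected to be read at high levels. A list of 36 genes was taken by name, namely amylases, lipases and their cofactors, trypsinogens, chymotrypsinogens and elastases, carboxypeptidases, a kallikrein, a ribonuclease, a trypsin inhibitor, zymogen granule proteins, Reg proteins and 2 acinar transcription factors. Of these, 34 were named on the array, each by 1 transcript cluster (the unit that stands for a gene on this platform), among 22198 transcript clusters in all. The pancreatic lipase gene Pnlip and the chymotrypsin gene Ctrc were not named in the annotation, so their signals were not analysed here, while the promoter window of Pnlip was included with the others.

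The study asked what the loss of Raptor, a subunit that sets mTOR complex 1 apart from mTOR complex 2, changes in the genes of β-cells before diabetes. Affymetrix Clariom S arrays were hybridised with RNA of GFP-positive cells of 2-week-old mice, with 4 arrays of knockout mice (KO; Raptor-/-, RIP-Cre, Rosa26GFP) and 3 of littermates (WT; Raptor+/+, RIP-Cre, Rosa26GFP). The labels give the strain as C57BL/6, and per the methods the Raptor flox/flox line was C57BL/6J and the RIP-Cre line, carried by both groups, of a mixed background. Both groups had the Cre driven by the rat insulin promoter and the reporter that Cre switches on. Each array held a pool of several animals of 1 genotype, so an array is a pool and not a mouse, and the sort enriched the labelled cells without excluding all others.

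Acinar cells make up most of the exocrine pancreas and synthesise digestive enzymes, most of them as inactive zymogens, which they store in zymogen granules and release into the duct. Transcription of these genes depends on PTF1, a complex of Ptf1a with a common E-protein and Rbpjl (or Rbpj), which reads an E-box next to a TTTCCCA-like box. The messenger RNAs of the enzymes are among the most abundant of the whole pancreas, whereas β-cells are known for insulin.

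Promoter sequences are shown first because PTF1 sites of this form are the best known feature that acinar genes share, and the list was not chosen by them. Windows from RefSeq (GRCm38.p6) of 300 bases, 250 before and 50 after the start site, were found for 30 of the 36 genes, with 31 windows in all because Amy1 has a pair of starts. Motifs were searched on both strands. The E-box CACCTG lay in 18 of the 31 windows (58.1%), against 20.2% of all 32851 windows, and any E-box of the form CANNTG, which includes CACCTG, in 25 (80.6%), against 72.3%. TTTCCCA lay in 7 (22.6%), against 8.1%, and TATAAA in 14 (45.2%), against 13.6%. A TTTCCCA within 25 bases of a CANNTG occurred in 4 windows (12.9%), against 1.7% of all. These 4 are printed, 5′ to 3′ along the gene, with both motifs in capitals (TGGGAAA is TTTCCCA read on the other strand), from chr6:30639165-30639219 on the plus strand for Cpa1, chr2:28563448-28563505 on the minus strand for Cel, chr8:111691184-111691230 on the minus strand for Ctrb1 and chr6:78379069-78379115 on the minus strand for Reg3d.
Cpa1: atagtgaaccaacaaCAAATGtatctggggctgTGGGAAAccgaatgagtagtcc
Cel: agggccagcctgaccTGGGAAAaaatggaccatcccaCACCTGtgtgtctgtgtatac
Ctrb1: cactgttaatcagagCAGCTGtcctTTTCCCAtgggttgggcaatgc
Reg3d: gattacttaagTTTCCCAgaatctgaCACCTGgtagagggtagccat

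Counted from the start site, the Cpa1 stretch begins at -53, that of Cel at -102, that of Ctrb1 at -220 and that of Reg3d at -250. A match is a description of letters and not a bound site. The windows of Ptf1a, Pla2g1b, Sycn and Rnase1 held none of the motifs searched. Members of a family share sequence, so their windows are not independent of one another.

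Values are log2 signals after quantile normalization between arrays, so that a difference of 1 is a factor of 2, and the signal of a gene is compared only with that of the same gene on other arrays. Signal over background was not known for single transcripts. The other facts of the arrays that bear on the acinar genes are few. KO replicates 3 and 4 and WT replicate 3 stood apart from the rest over all transcript clusters, with median correlations to the other arrays of 0.937, 0.924 and 0.933, against 0.954 to 0.961 for the other 4. The list of 12 β-cell genes averaged 13.79 to 14.95 on the KO arrays and 14.75 to 15.05 on the WT arrays, and Ins2 (insulin) and Gcg (glucagon) stood at 19.91, the top of the scale and so a bound, on all 7. The mean of 3 Y-linked genes was 4.52 on KO replicate 4 and 4.42 on WT replicate 3, and 7.49 to 8.89 on the other arrays. The methods state that the animals were male, and why these pools were low in Y-linked signal was not tested. Rptor, which encodes Raptor, was 5.99, 5.96, 4.40 and 8.54 on KO replicates 1 to 4, against 5.98, 5.26 and 6.08 on WT replicates 1 to 3. Where its probes lie relative to the deleted part was not known, so this signal does not check the labels, and directions below follow them.

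The signals of acinar genes differed between pools by far more than those of most genes. The median range of the 34 genes over the 7 arrays, the highest minus the lowest log2 signal, was 9.14 (562-fold), against 1.23 for all transcript clusters. A range above 4 was found for 30 of the 34 genes, where 3.53% of all transcript clusters had one. The 99th percentile of the range over all transcript clusters was 5.44, and 27 acinar genes lay above it. The 4 genes with a range of 4 or less were Reg3a, Reg3d, Ptf1a and Rbpjl. Lowest values of several wide-ranging genes, such as 4.84 for Klk1, were dim, where the array may not separate a transcript from background.

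The pools fell into nearly the same order for most of these genes. The mean of the 34 genes was 8.37, 11.67, 8.36 and 14.21 on KO replicates 1 to 4, against 10.10, 13.53 and 6.75 on WT replicates 1 to 3. KO replicate 4 and WT replicate 2 were the highest pools, KO replicate 2 and WT replicate 1 lay in between, and KO replicates 1 and 3 and WT replicate 3 were the lowest. KO replicate 4 was highest for 26 genes, WT replicate 2 for 7 and KO replicate 2 for 1, the last being Ptf1a, with Amy2a5 counted for KO replicate 4 although it was equal on WT replicate 2. WT replicate 3 was lowest for 22 genes, KO replicate 3 for 6, KO replicate 1 for 5 and WT replicate 1 for 1. KO replicate 4 and WT replicate 2 were the top pair for 28 genes, and KO replicate 2 came next for all 28. The exceptions were Amy1, Reg2, Reg3a, Reg3d, Ptf1a and Rbpjl. In bulk pools, fewer acinar cells and less acinar RNA per cell cannot be told apart.

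**Figure D1:**
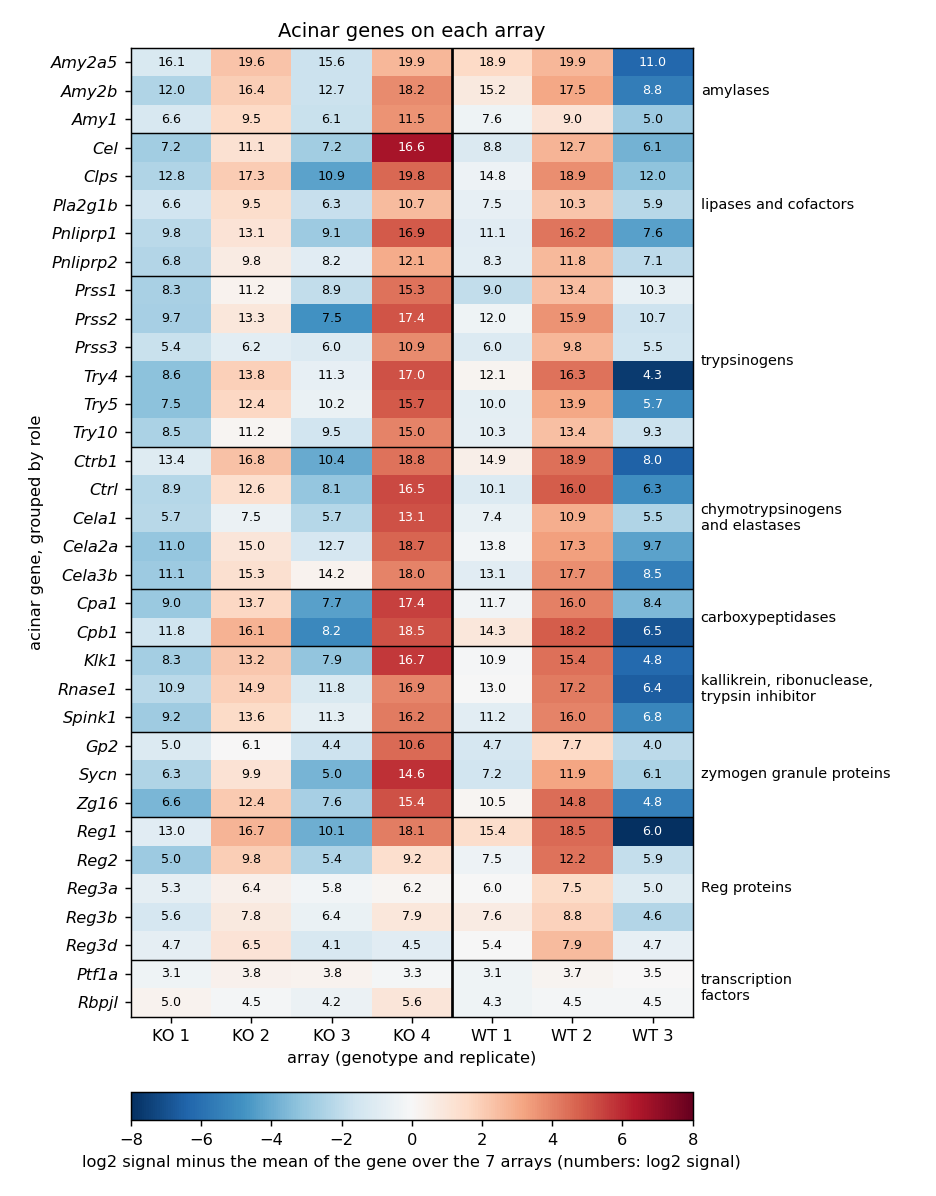
Log2 signal of 34 acinar genes (rows, grouped by role) on the 4 KO and 3 WT arrays (columns), printed in each cell and coloured by its difference from the gene's mean over the 7 arrays. KO replicate 4 and WT replicate 2 are the warmest columns and WT replicate 3 is the coldest for 22 genes, while Ptf1a and Rbpjl hardly change colour.

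Amylases, which cut starch, were high and low on much the same pools. Amy2b, a pancreatic amylase, had a log2 signal of 12.02, 16.36, 12.70 and 18.18 on KO replicates 1 to 4, against 15.16, 17.51 and 8.84 on WT replicates 1 to 3. Its range was 9.33, and both groups held high and low pools. Amy1, the salivary and liver type, gave 6.61, 9.49, 6.12 and 11.51 in KO, against 7.56, 8.96 and 4.99 in WT. Amy1 had the smallest range of the 3, 6.52, and its top pools were KO replicates 4 and 2. Amy2a5 ran from 11.00 on WT replicate 3 to 19.91 on KO replicate 4 and WT replicate 2. Both top values stood at the upper limit of the deposited scale, 19.93 before normalization, so that the range of 8.91 is a lower bound.

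Lipases and their cofactors followed the same pools. Cel, the bile salt-dependent carboxyl ester lipase, had 7.17, 11.14, 7.19 and 16.55 in KO, against 8.76, 12.65 and 6.14 in WT, a range of 10.41. KO replicate 4 was far above every other pool for this gene, and the groups overlapped. Pla2g1b, the secreted pancreatic phospholipase, had 6.57, 9.52, 6.28 and 10.66 in KO, against 7.45, 10.35 and 5.91 in WT, the smallest range of the group at 4.75. Clps, the colipase that anchors lipase to fat droplets, had 12.82, 17.28, 10.94 and 19.83 in KO, against 14.85, 18.93 and 12.01 in WT. Its value on KO replicate 4 stood at the upper limit, and KO replicate 3 was its lowest pool. The lipase-related genes Pnliprp1 and Pnliprp2 had ranges of 9.28 and 5.29.

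Trypsinogens are the zymogens whose activation starts that of the others, and in this family the lowest pool differed from gene to gene. Try4 had the largest range of the genes that stayed below the upper limit, 12.73 (6794-fold), with 8.64, 13.80, 11.26 and 16.99 in KO, against 12.10, 16.26 and 4.26 in WT. WT replicate 3 was thus at the bottom for Try4, well below every KO pool. At 4.26 the array may not separate a transcript from background, so the fold is not a measured amount. Prss2 had 9.67, 13.26, 7.49 and 17.38 in KO, against 12.01, 15.91 and 10.70 in WT, and its lowest pool was KO replicate 3. Prss1 had 8.35, 11.21, 8.95 and 15.30 in KO, against 8.99, 13.42 and 10.32 in WT, with WT replicate 3 in the middle of the order. Prss3 had the smallest range of the 6, 5.51, with 5.36, 6.25, 5.99 and 10.87 in KO, against 6.02, 9.77 and 5.52 in WT, and only KO replicate 4 and WT replicate 2 stood clear of the rest. Try5 and Try10 had ranges of 9.95 and 6.52. The trypsinogens are close copies of one another, and reads of one probe set can include RNA of another, so differences between them are uncertain.

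Proximal promoters of 3 of these genes on chromosome 6 are shown because the genes differed in their lowest pool. The stretches run from an E-box upstream through TATAAA, both in capitals, and lie at chr6:41302168-41302254 on the plus strand for Try4, chr6:41458826-41458912 on the plus strand for Prss1 and chr6:41521613-41521773 on the plus strand for Prss2.
Try4: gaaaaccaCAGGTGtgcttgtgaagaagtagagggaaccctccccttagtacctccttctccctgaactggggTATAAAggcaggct
Prss1: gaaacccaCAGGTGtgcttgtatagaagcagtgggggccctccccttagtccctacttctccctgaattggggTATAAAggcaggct
Prss2: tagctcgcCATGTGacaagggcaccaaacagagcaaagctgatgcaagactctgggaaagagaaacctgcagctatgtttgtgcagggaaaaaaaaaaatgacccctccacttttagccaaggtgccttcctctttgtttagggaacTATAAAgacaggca

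Try4 and Prss1 shared 77 of the 87 positions of this stretch (88.5%), and the Prss2 stretch, which is longer, was not aligned with them. CAGGTG is CACCTG read on the other strand, and the E-box marked in the Prss2 stretch is of the wider form CANNTG. The Prss2 window also held 1 CACCTG and 1 TTTCCCA, the latter unmarked in the stretch as tgggaaa. KO replicate 3 minus WT replicate 3 was 7.0 for Try4 and -1.37 for Prss1.

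Chymotrypsinogens and elastases, which cut next to other residues than trypsin, had ranges of 7.54 to 10.89. Ctrb1, a chymotrypsinogen, had 13.37, 16.75, 10.36 and 18.76 in KO, against 14.90, 18.85 and 7.95 in WT. Its highest pool was WT replicate 2 by a small margin over KO replicate 4, and the groups overlapped. Cela1, an elastase, had 5.74, 7.48, 5.67 and 13.07 in KO, against 7.40, 10.86 and 5.53 in WT, the smallest range of the group. Ctrl, Cela2a and Cela3b had ranges of 10.23, 8.99 and 9.47.

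Carboxypeptidases remove residues from the end of peptides. Cpa1, which cuts off aromatic and aliphatic residues, had 9.03, 13.66, 7.65 and 17.45 in KO, against 11.70, 16.02 and 8.42 in WT, a range of 9.80. Cpb1, which cuts off basic residues, had 11.76, 16.14, 8.21 and 18.49 in KO, against 14.28, 18.24 and 6.48 in WT, a range of 12.01. For both genes, KO replicate 4 and WT replicate 2 were highest, and KO replicate 3 and WT replicate 3 were lowest.

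Other secreted products varied as widely. Klk1, tissue kallikrein, had 8.32, 13.19, 7.91 and 16.69 in KO, against 10.94, 15.45 and 4.84 in WT, a range of 11.85. Spink1, which inhibits trypsin inside the gland, had 9.18, 13.56, 11.27 and 16.20 in KO, against 11.19, 15.99 and 6.80 in WT, a range of 9.39. WT replicate 3 was the lowest pool for both, and the groups overlapped. Rnase1, the pancreatic ribonuclease, had a range of 10.74.

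Zymogen granule proteins line or pack the granule. Zg16, which binds sugars in the granule matrix, had 6.64, 12.40, 7.62 and 15.37 in KO, against 10.47, 14.79 and 4.84 in WT, a range of 10.52. Gp2, the main glycoprotein of the granule membrane, had 4.98, 6.07, 4.43 and 10.58 in KO, against 4.71, 7.66 and 3.96 in WT, a range of 6.62. Syncollin, Sycn, had 6.30, 9.86, 4.98 and 14.57 in KO, against 7.18, 11.86 and 6.14 in WT, a range of 9.59. KO replicate 4 was the highest pool for all 3 genes, and KO replicate 3 was the lowest for Sycn.

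Reg proteins are secreted lectin-like proteins whose genes are induced in the injured or inflamed pancreas. Reg1 had 13.04, 16.68, 10.07 and 18.06 in KO, against 15.38, 18.49 and 5.99 in WT, a range of 12.50. Reg3a had 5.28, 6.42, 5.80 and 6.17 in KO, against 5.99, 7.54 and 5.0 in WT, the smallest range of the family at 2.54. WT replicate 2 was the highest pool for all 5 Reg genes. Reg2 had 4.98, 9.81, 5.39 and 9.23 in KO, against 7.48, 12.22 and 5.93 in WT. Reg3d had 4.67, 6.49, 4.14 and 4.48 in KO, against 5.36, 7.91 and 4.72 in WT, and on KO replicate 4, the highest pool for most other genes, it was among its 2 lowest values. Reg3b had a range of 4.14.

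The transcription factors of the acinar programme did not share the spread. Ptf1a had 3.13, 3.79, 3.77 and 3.31 in KO, against 3.10, 3.71 and 3.5 in WT, a range of 0.69. Rbpjl had 4.95, 4.54, 4.20 and 5.64 in KO, against 4.33, 4.51 and 4.54 in WT, a range of 1.44. Rbpjl was highest on KO replicate 4, and Ptf1a on KO replicate 2, and both were dim on every array. At these levels the array may not separate a transcript from background, so a small spread does not show a constant amount.

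Covariation was then measured against Cpa1, an enzyme of acinar cells, over the 7 pools. The values of different genes on an array come from the same RNA, so the genes are not independent of one another. Of the other 33 genes, 18 had a Pearson r with Cpa1 of at least 0.9, where 0.622% of the other 22197 transcript clusters had one. The median r was 0.908 (0.049 to 0.996), against -0.02 over all transcript clusters. In an exact two-sided permutation test over all pairings of the 7 arrays, with Benjamini-Hochberg adjustment over the 33 genes, 30 had an adjusted p below 0.05 by r and 25 by Spearman's rho. The 3 that did not by r were Ptf1a (r = 0.049, rho = -0.071, exact permutation p = 0.902), Rbpjl (r = 0.551, rho = 0.429, exact permutation p = 0.197) and Reg3d (r = 0.545, rho = 0.429, exact permutation p = 0.203).

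Clps, the colipase gene, whose value on KO replicate 4 is a bound, had the highest r with Cpa1 as measured (r = 0.996, rho = 1.0, exact permutation p = 0.000198, adjusted p = 0.00327). The value 0.000198 is the smallest that the pairings can give for r. Pla2g1b, the phospholipase (r = 0.980, rho = 0.964), came next, before Sycn of the granule (r = 0.977, rho = 1.0) and Pnliprp1 (r = 0.977, rho = 0.964). Among the enzymes the lowest r was that of Amy2a5 (r = 0.809, rho = 0.955), whose top values stood at the upper limit, followed by Cela3b (r = 0.834, rho = 0.786) and Try4 (r = 0.859, rho = 0.893). These pass the adjusted threshold by r, and Cela3b does not by rho (exact permutation test, adjusted p = 0.0528). On values centred on the group means, which takes out any difference by genotype, the median r was 0.935, with 21 genes at 0.9 or above and 30 below an adjusted p of 0.05. The share of all transcript clusters at 0.9 or above on centred values was not counted.

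Without KO replicate 4 and WT replicate 2, the arrays farthest from the median of Cpa1, the median r over the other 5 arrays was 0.829 (0.016 to 0.995). The r was positive for all 33 genes, and 12 stood at 0.9 or above. An unadjusted exact permutation p below 0.05 remained for 14, and an adjusted one for 0, where the smallest p that 5 arrays allow is 0.00833. The shares of all transcript clusters at these limits over the 5 arrays were not counted. A high r is easier to reach with fewer arrays, so these counts do not set the list apart. Reg3d had an r of 0.974 over these 5 arrays, against 0.545 over all 7. For most genes r was lower over the 5 arrays, with 0.016 for Rbpjl, 0.546 for Cela3b and 0.550 for Prss1. The trypsinogens did not move as a set, since r over these arrays was 0.907 for Prss2 and 0.836 for Try10.

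**Figure D2:**
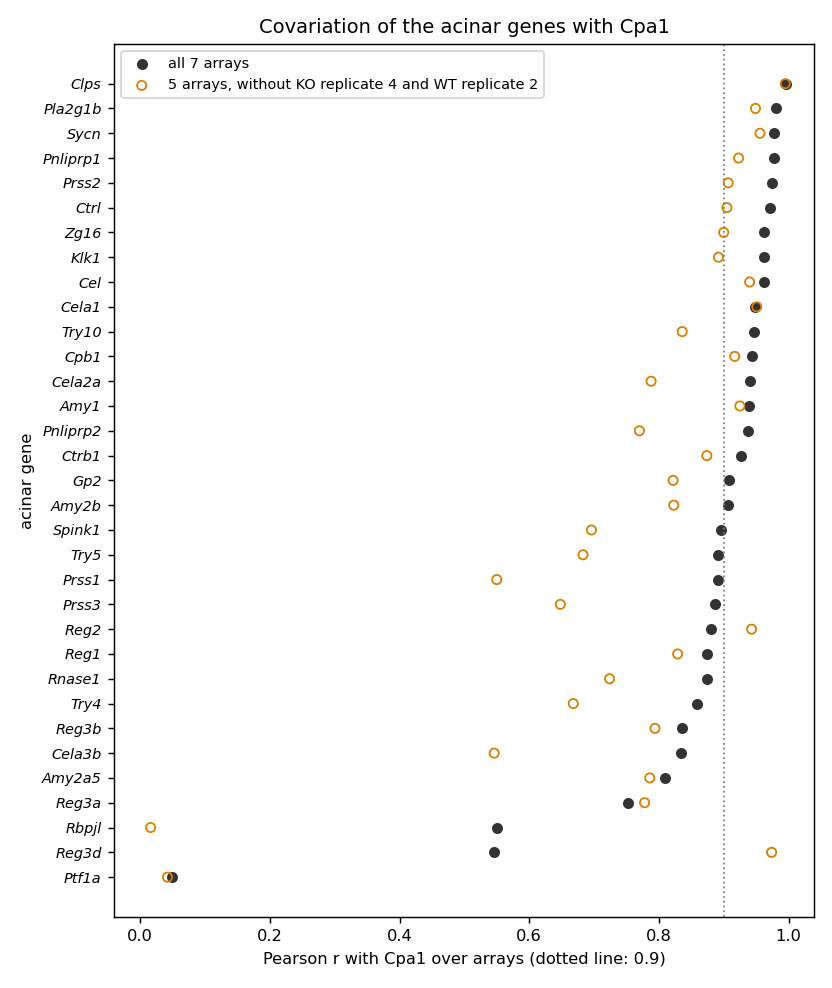
Pearson r of 33 acinar genes with Cpa1 over all 7 arrays (filled points) and over the 5 arrays without KO replicate 4 and WT replicate 2 (open points), with genes down the page in the order of the filled points. Clps lies at 0.996 and Ptf1a at 0.049, and Reg3d moves to 0.974 over the 5 arrays.

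In the fit without a replicate block, no difference between KO and WT beyond the spread between pools was found in these genes, and the block changed this for 7 of them before adjustment. Differences are KO minus WT. Of the 34 genes, 27 were higher in the KO mean and 7 lower, with a median difference of 0.56, against 0.003 for all transcript clusters. An unadjusted limma p below 0.05 was reached by 0 of the 34 genes, where 2.18% of all transcript clusters reached it in either direction, and an adjusted one also by 0, as by 0.0% of all. The unadjusted p of the 34 ran from 0.255 for Reg3d to 0.993 for Prss3. The groups did not overlap for 0 of the 34 genes, against 3.93% of all transcript clusters.

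The errors show what such a comparison could resolve. The SE of the difference had a median of 2.28 over the 34 genes and ran from 0.27 for Ptf1a to 3.23 for Cpb1. The largest difference was that of Try4, which averaged 12.67 ± 3.57 in KO and 10.87 ± 6.10 in WT (SD, n = 4 and 3), a difference of 1.80 ± 2.96 (SE; limma, adjusted p = 1.0). Reg3d averaged 4.94 ± 1.05 in KO and 5.99 ± 1.69 in WT (SD, n = 4 and 3), a difference of -1.05 ± 0.85 (SE; limma, adjusted p = 1.0). Cpa1 averaged 11.95 ± 4.48 in KO and 12.04 ± 3.81 in WT, a difference of -0.10 ± 2.64 (SE; limma, adjusted p = 1.0). The mean over the 34 genes varied with an SD of 2.83 between KO pools and 3.39 between WT pools, and its group means differed by 0.52. A p that misses the threshold here does not show equal levels, since the errors allow differences of several log2 units.

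**Figure D3:**
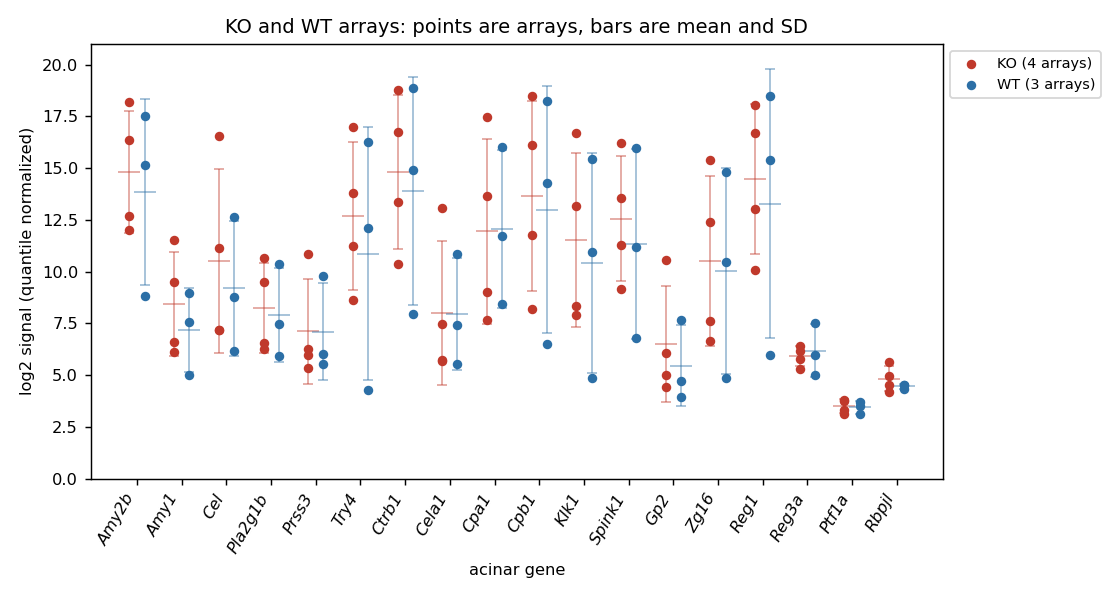
Log2 signal of 18 acinar genes on the 4 KO arrays (left point column of each gene) and the 3 WT arrays (right point column), with the mean and SD of each group. The KO and WT points overlap for every gene shown, and Ptf1a, Rbpjl and Reg3a have the narrowest spreads.

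By role, the median difference was 1.19 for the 3 amylases, 1.23 for kallikrein, ribonuclease and trypsin inhibitor, 0.74 for the 5 chymotrypsinogens and elastases, 0.54 for the 3 granule proteins, 0.35 for the 5 lipases and cofactors and 0.04 for the 6 trypsinogens. Cpb1 was 0.65 and Cpa1 -0.10. Reg proteins had 4 of 5 genes lower in the KO mean, with a median of -0.26, and Reg1, the exception, stood at 1.18. None of the genes behind these medians passed the test.

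Single pools set the sign of the median. It was -0.64 without KO replicate 4, -1.25 without WT replicate 3 and 2.22 without WT replicate 2, and 0.27 to 1.53 when any of the other 4 arrays was left out. No acinar gene reached an unadjusted limma p of 0.05 in any of these 7 fits, where 300 to 697 of all 22198 transcript clusters did. At such shares a list of 34 genes would often hold none, so the 0 does not set it apart. KO replicates 1 and 2 against WT replicates 1 and 2, the arrays most like one another, gave a median of -2.06, with 32 of 34 genes lower in KO and 0 at an unadjusted p of 0.05, against 2.22% of all transcript clusters.

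The replicate numbers of the titles were shared by KO and WT arrays 1 to 3, and same-numbered arrays deviated together in the values that were also fitted. That these arrays are pairs is an assumption, on which the calls of the block fit rest. In a fit with the replicate as a block, in which KO replicate 4 has no partner and so drops out, 7 of the 34 genes had an unadjusted limma p below 0.05, all lower in KO, against 2.61% of all transcript clusters in either direction. The differences ± SE were -2.73 ± 0.27 for Prss2, -1.93 ± 0.44 for Cpa1, -1.82 ± 0.46 for Reg2, -1.58 ± 0.28 for Clps, -1.41 ± 0.37 for Prss1, -1.35 ± 0.31 for Sycn and -0.90 ± 0.28 for Reg3d. Their unadjusted limma p ran from 0.000192 for Prss2 to 0.0235 for Reg3d, and the limma adjusted p was 0.933 for each. Within the numbers, KO was below WT for 31 of 34 genes in replicate 1 (median -1.91) and for 31 in replicate 2 (median -2.10), and above it for 26 in replicate 3 (median 1.16).

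The pair of replicates 3 joined pools that were both low in acinar signal, and the genes split in it. KO replicate 3 was above WT replicate 3 by 7.0 for Try4, 5.73 for Cela3b, 5.38 for Rnase1, 4.56 for Amy2a5, 4.53 for Try5 and 4.47 for Spink1. It was below WT replicate 3 by log2 differences of -3.21 for Prss2, -1.37 for Prss1, -1.16 for Sycn, -1.07 for Clps and -0.76 for Cpa1. For all transcript clusters the 1st and 99th percentiles of this difference were -3.36 and 3.24. Reg1 and Amy2b, at 4.09 and 3.86, also lay above the 99th percentile. The value of Try4 on WT replicate 3, 4.26, was dim and may be background, so its difference is uncertain in size. Each side is a single pool, so no test was made, and the split was noticed after the values were seen.

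The most acinar pool of each group gave another split. KO replicate 4 was above WT replicate 2 for 25 genes and below it for 8, with a median of 0.66. All 5 Reg genes were below (median -1.36), with Reg3d at -3.42 and Reg2 at -3.00, while 25 of the 29 other genes were above (median 0.90), led by Cel at 3.90, Gp2 at 2.92, Sycn at 2.71 and Amy1 at 2.56. The 1st and 99th percentiles over all transcript clusters were -2.80 and 2.95. Each side is a single pool, so this is a description of these pools and was noticed after the values were seen.

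**Figure D4:**
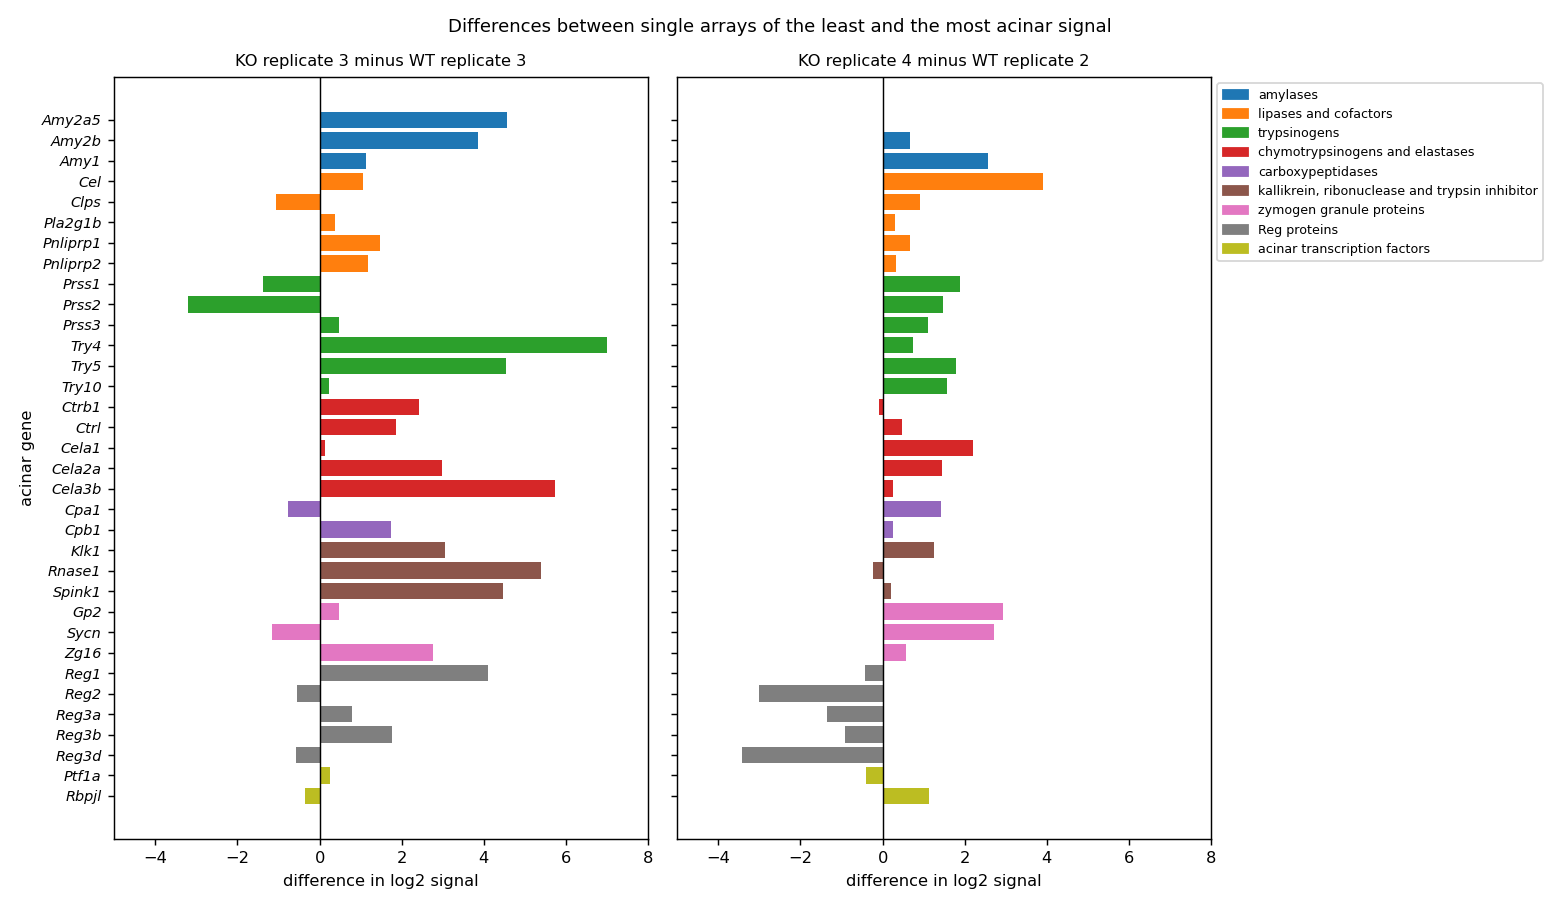
Difference in log2 signal of 34 acinar genes, coloured by role, for KO replicate 3 minus WT replicate 3 (left) and KO replicate 4 minus WT replicate 2 (right). Try4 reaches 7.0 and Prss2 -3.21 on the left, and the Reg genes are the only role with every gene below 0 on the right.

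Genes outside the list that moved most like its mean over the pools were sought among 1990 named genes with an SD of at least 1. The 10 with the highest r were Serpini2 (0.999), 2210010C04Rik (0.986), Dmbt1 (0.974), Fam107b (0.966), Cfl2 (0.963), Cxcl10 (0.957), Wdr1 (0.957), Cuzd1 (0.955), Hcar2 (0.955) and Tff2 (0.951), and 31 had an r of at least 0.9. Serpini2, a serine protease inhibitor of the pancreas, had 5.13, 7.06, 5.26 and 8.46 in KO, against 6.06, 8.28 and 4.15 in WT. Its pools stood in nearly the order of the acinar mean, with KO replicate 4 and WT replicate 2 on top. Tff2, a trefoil peptide, had 7.08, 10.45, 7.58 and 15.61 in KO, against 8.95, 13.93 and 7.58 in WT. These r values are descriptions over 7 pools that share their RNA with the list.

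Of a second list of 28 acinar genes, 24 were measured, and 6 of them had an r with Cpa1 of at least 0.9 and 6 a range above 4, against 0.622% and 3.53% of all transcript clusters. The median r of this list was 0.26 and its median range 1.79, against 0.908 and 9.14 for the first list. The 5 widest were Nupr1 (9.83), a stress-induced nuclear protein, Tff2 (8.54), Pdia2 (5.90), the pancreatic protein disulfide isomerase, Cela3a (5.07), an elastase, and Serpini2 (4.32). Nupr1 had 4.82, 8.20, 6.03 and 14.45 in KO, against 5.69, 9.71 and 4.62 in WT, and KO replicate 4 stood far above the other pools. At an unadjusted limma p of 0.05, 2 of the 24 were lower in KO and 0 higher, namely the muscarinic receptor gene Chrm3 (-1.06) and Reg3g (-0.76), both with a limma adjusted p of 1.0, against 2.18% of all transcript clusters. Their r with Cpa1 was -0.29 and -0.28. Reg3g was dim on every array (3.34 to 4.84), where the array may not separate a transcript from background.

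An r with Cpa1 of at least 0.9 was found for 0 of 7 mesenchymal, 0 of 6 endothelial and 0 of 6 leukocyte genes. The count was 0 of 1 for erythroid, 0 of 12 for β-cell and 0 of 5 for α-cell genes. It was 0 of 6 for δ-, PP- and ε-cell genes and 0 of 3 for Y-linked genes. Over all transcript clusters the share was 0.622%. At that share, lists this short would be likely to hold none, so the zeros do not set these lists apart. Ins2 and Gcg stood at the upper limit on all arrays, so they could show no such r. Iapp and Pyy stood at or near it, so their r (0.50 and 0.47) rests in part on bounds. The zeros of these 4 say nothing. Sst also reached the limit on KO replicate 1. An r of at least 0.9 was found for 2 of 8 ductal genes, the keratins Krt18 (r = 0.947) and Krt8 (r = 0.908), which acinar cells also make. Krt8 had 12.78, 14.00, 9.54 and 14.98 in KO, against 12.98, 15.20 and 11.76 in WT, and was highest on the pools with most acinar signal. The ductal keratin Krt19 had an r of 0.02 and a range of 1.18. It was dim on every array (3.80 to 4.98), where a transcript may not be separated from background. Krt7, at 12.22 to 14.04, had an r of -0.66. The r was 0.76 for Muc1, 0.61 for Car2, 0.53 for Sox9 and -0.20 for Cftr, so the ductal genes did not move as a set. The 12 β-cell genes had a median r of -0.33. The mean of the 7 mesenchymal genes was highest on KO replicate 4 (6.72) and WT replicate 3 (6.84). It was 4.87 to 5.55 on the other arrays. The genes behind this mean differed in part between these pools. Dcn was 6.39 on KO replicate 4 and 10.15 on WT replicate 3, and Lum was 8.46 and 5.12. Vim was 7.55 on both, and Pdgfrb, at 4.66 and 4.97, was raised on neither. Which cells gave these signals was not tested.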

How the data were processed

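RNA of sorted β-cells was measured on 7 arrays (4 KO, 3 WT). The authors deposited log2 signals per transcript cluster. Affymetrix Expression Console and MAS5 are listed in the processing notes of the submitters and GeneSpring in the methods, but no source used here says which of them gave the log2 values. Array medians differed by more than 0.1, so the values were quantile normalized. The upper limit of the deposited scale was 19.93, and values within 0.15 of it were read as bounds. The number of arrays limits the precision.

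KO was compared with WT with lmFit and eBayes of limma 3.58.1 (R 4.3.3), two-sided, without a block and with Benjamini-Hochberg adjustment over 22198 transcript clusters, and the fit was tested on simulated data. Correlations used exact permutations (numpy 2.4.6, scipy 1.17.1). Of the transcript clusters, 19565 had 1 gene symbol, and the symbols of all 34 genes matched RefSeq by gene identifier. The genes and lists were chosen with earlier results of these data known. Values on every array are given for the genes with the largest and the smallest range of each role, Cpa1, Ptf1a and Rbpjl, and for genes called with the replicate block, which were added after their values were seen. Other genes named were the 10 most alike in pattern and the 5 widest of a second acinar list, and any further one was chosen after its values were seen.

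Deviations from the group means correlated at 0.16, 0.24 and 0.17 between KO and WT arrays of equal number and at -0.18 to 0.02 for unequal numbers. All 3 were above the limit of 0.1, so the numbers were read as pairs in the block fit, although no source says what equal numbers share. Deviations cancel out over the arrays of a group, so the unequal values follow in part from the equal ones and are no separate contrast. The check used the same values as the fit, acinar genes included, so the pairing remains an assumption. Arrays of a group were independent pools per the methods. Alternatives were the deposited values, median centring, cyclic loess, the methods' t-test, eBayes with a trend, leaving out dim transcripts or genes at the upper limit, the mean over transcript clusters, Cpb1 in place of Cpa1, the replicate block, each array left out and, added after seeing the data, the 4 arrays most like one another.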

Additional observations from a re-analysis of the deposited data

Results flagged for a closer look

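Prss3, a trypsinogen, had a KO value far from the others of its group. KO replicate 4 stood at 10.87, against 5.36 to 6.25 on the other 3 KO arrays, and the gap took up 0.837 of the range of the 4 values, above the limit of Dixon’s gap test for 4 values. This was 1 of 34 groups of 4 KO values tested, where chance gives about 1 in 20, or 1.7 of 34. WT replicate 2 stood at 9.77, against 5.52 and 6.02 on the other WT arrays, and groups of 3 were not tested.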

How the results depend on the processing

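Changes of scaling moved the spread and the covariation of the acinar genes little, while the sign of many KO minus WT differences depended on single arrays. The number of genes at an unadjusted p of 0.05 was 0 in every setting except the replicate block, where it was 7. Of all 22198 transcript clusters, 579 reached it with the block and 300 to 697 in the other fits on all of them. With dim transcripts left out, 177 of 11099 did. The 4 arrays most like one another, a set chosen after seeing the data, gave a median range of 5.48 in place of 9.14, since they leave out the highest and the lowest pools. The 29 genes with an adjusted p below 0.05 for r with Cpa1 on deposited, median centred and loess values compare with 30 on quantile normalized ones, 28 with Cpb1 in place of Cpa1, and 25 to 29 with an array left out. The median r was 0.898 to 0.954 over these settings. Without both KO replicate 4 and WT replicate 2 it was 0.829, with 0 genes at an adjusted p below 0.05. The replicate block also takes KO replicate 4 out, and leaving that array out with no block gave the same differences (median -0.64 in both), with 0 genes at an unadjusted p of 0.05 in place of 7, so these changes in sign come from that array and the calls from the block. In both settings the difference was -0.14 for Amy2b, -0.68 for Cel, -1.63 for Cela1, -0.97 for Cpb1, -0.40 for Ctrb1, -0.28 for Gp2, -0.60 for Klk1, -0.45 for Pla2g1b, -1.24 for Prss3, -0.02 for Reg1 and -1.15 for Zg16, all above 0 with all 7 arrays. The cause of the changes under other scalings was not tested. Cela1 was -0.01 after median centring, Cpa1 0.04 after cyclic loess, and Prss3 -0.06 as deposited, -0.08 after median centring and -0.05 after cyclic loess. With each array left out in turn, the difference ran from -1.52 to 2.81 for Amy2b, -0.68 to 3.06 for Cel, -1.63 to 1.52 for Cela1, -1.93 to 1.89 for Cpa1, -2.61 to 3.27 for Cpb1, -2.06 to 3.39 for Ctrb1, -0.28 to 2.18 for Gp2, -1.66 to 3.64 for Klk1, -0.64 to 1.58 for Pla2g1b, -1.24 to 1.35 for Prss3, -0.11 to 0.20 for Ptf1a, -2.47 to 3.78 for Reg1, -0.84 to 0.43 for Reg3a, -1.04 to 3.56 for Spink1, -1.51 to 4.49 for Try4 and -2.13 to 2.85 for Zg16. Signal over background was not known, which limits what dim genes such as Ptf1a can show.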

Other observations

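Of the 24 measured genes of the second acinar list, 1 had an r with Cpa1 of -0.9 or below, namely Vamp8. It and Bhlha15 were picked after their values were seen, and their r was not tested. The share of all transcript clusters at -0.9 or below was not counted. Vamp8, a protein of the granule release machinery that many cells express, had 12.07, 11.46, 12.72 and 10.93 in KO, against 11.53, 11.35 and 12.25 in WT, with an r with Cpa1 of -0.95. It was lowest on KO replicate 4 and highest on KO replicate 3. Bhlha15, a transcription factor of secretory cells, had 9.16, 8.47, 9.37 and 8.56 in KO, against 7.82, 8.31 and 8.67 in WT. Its r was -0.55, and the groups overlapped. Rbpjl, whose r of 0.551 was of similar size, had an exact permutation p of 0.197, so no opposing pattern is read from Bhlha15.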
